A study of Mus musculus with 23 samples.

Results

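The genes described here are 8 transcripts that mark pericytes and the vascular subset of cancer-associated fibroblasts (CAFs): Rgs5, Cspg4, Kcnj8, Abcc9, Notch3, Mcam, Higd1b and Ndufa4l2. They were chosen by name from what is known of these cells, after earlier results of these data had been seen. They are 8 of the 24940 gene symbols in each of the 2 expression tables. Where a symbol had several transcripts, the transcript with the largest mean over the libraries stood for the gene. RNA sequencing had been done on whole tumors and on sorted CAFs of mouse cancer cell lines injected as 500000 cells into the flank of adult female C57BL/6 mice aged 10 to 15 weeks. The tumor libraries were made from a fragment of each excised tumor, with 3 tumors for each of 5 models. The models were B16-F10 (melanoma, written B16), EO771.LMB (breast carcinoma, EO771), LL2 (lung carcinoma), MC38 (colon carcinoma) and Pan02 (pancreatic carcinoma). The 3 Pan02 tumors bear the name Pan01 in their titles and Pan02 as their cell line, and they were taken as Pan02 here. The CAF libraries were made from live CD45- FAP+ cells sorted from tumors of EO771, LL2, MC38 and Pan02, with 2 libraries per model from separate rounds of sorting. No CAFs of B16 and no treated animals entered the comparisons. Each model is a single transplanted cell line in a single mouse strain and sex, so a difference between models is a difference between these lines as grown under the skin. Nothing in the labels ties the sorting rounds to separate animals, so p-values for CAFs measure only the spread between these libraries, which may be technical.

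Pericytes are mural cells that sit within the basement membrane of capillaries and small venules, wrapped around the endothelium. They are recruited by PDGF-B from endothelial cells acting on the receptor PDGFRβ, and Notch signalling from endothelium to mural cell, with Notch3 as the main mural receptor, helps to maintain them. In tumors, pericyte cover is often loose and uneven, and cells with pericyte genes make up the group usually called vascular CAFs when stromal cells of a tumor are sorted together. Several of these genes are not private to pericytes: Mcam and Cspg4 are also made by melanoma cells, Mcam by endothelium, and Notch3 by some carcinoma cells. In bulk libraries, fewer cells of a type and less RNA per cell cannot be told apart.

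The tumor libraries held 10035173 to 21946486 reads on genes. The CAF libraries were worth about 6223430 to 19537400 reads on genes, and about 9267810 to 22841800 reads in total. The defining marker of the sort, Fap, averaged 6.81, 9.58 and 7.84 RPKM (reads scaled to transcript length and library size) in CAFs of EO771, LL2 and MC38, but 2.58 RPKM in CAFs of Pan02, against 4.09 RPKM in whole Pan02 tumors. The leukocyte gene Ptprc (CD45), the marker used for exclusion, was at 0.902 and 0.947 RPKM in CAFs of EO771 and at 0.092 RPKM or less in the other CAF libraries. The sum of 8 leukocyte markers was 31.8 and 37.2 RPKM in the EO771 CAF libraries and 5.23 to 10.9 RPKM in those of the other models. Epithelial genes were high in some sorted libraries: Krt8, a keratin of simple epithelia, averaged 493 RPKM in CAFs of EO771, 87.3 RPKM in LL2 and 465 RPKM in Pan02, but 0.258 RPKM in MC38. The sum of 8 epithelial markers was 839 to 1120 RPKM in the Pan02 CAF libraries and 1360 to 2100 RPKM in Pan02 tumors. The endothelial gene Pecam1 was present at 9.78 and 10.6 RPKM in CAFs of EO771 and LL2 and at 2.58 and 1.94 RPKM in CAFs of MC38 and Pan02. The 2 MC38 CAF libraries also stood apart from each other in fibroblast genes, with a sum of 10 fibroblast markers of 4990 RPKM in library 5 and 975 RPKM in library 6. CAF libraries are named here by the running number in the deposited table, 1 and 2 for EO771, 3 and 4 for Pan02, 5 and 6 for MC38, and 7 and 8 for LL2.

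All 8 genes passed the filters on low values in both tables. In whole tumors, 5 of 8 differed among the 5 models in the test over all models (edgeR quasi-likelihood test, adjusted p under 0.05): Cspg4, Kcnj8, Notch3, Mcam and Ndufa4l2. That share has to be read against all genes, of which 91.1% passed the same test. Rgs5, Abcc9 and Higd1b did not pass, with adjusted p-values of 0.134, 0.158 and 0.0549. In sorted CAFs, 7 of 8 differed among the 4 models (limma on log2(RPKM + 1)), against 80.4% of all genes, and the exception was Mcam with an adjusted p of 0.101. The share of members was below that of all genes in tumors and near it in CAFs, so the sections that follow turn on which model was high or low and by how much. A gene is called higher or lower in a model where it differed from the mean of the other models by 1 or more on the log2 scale with an adjusted p under 0.05.

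**Figure D1:**
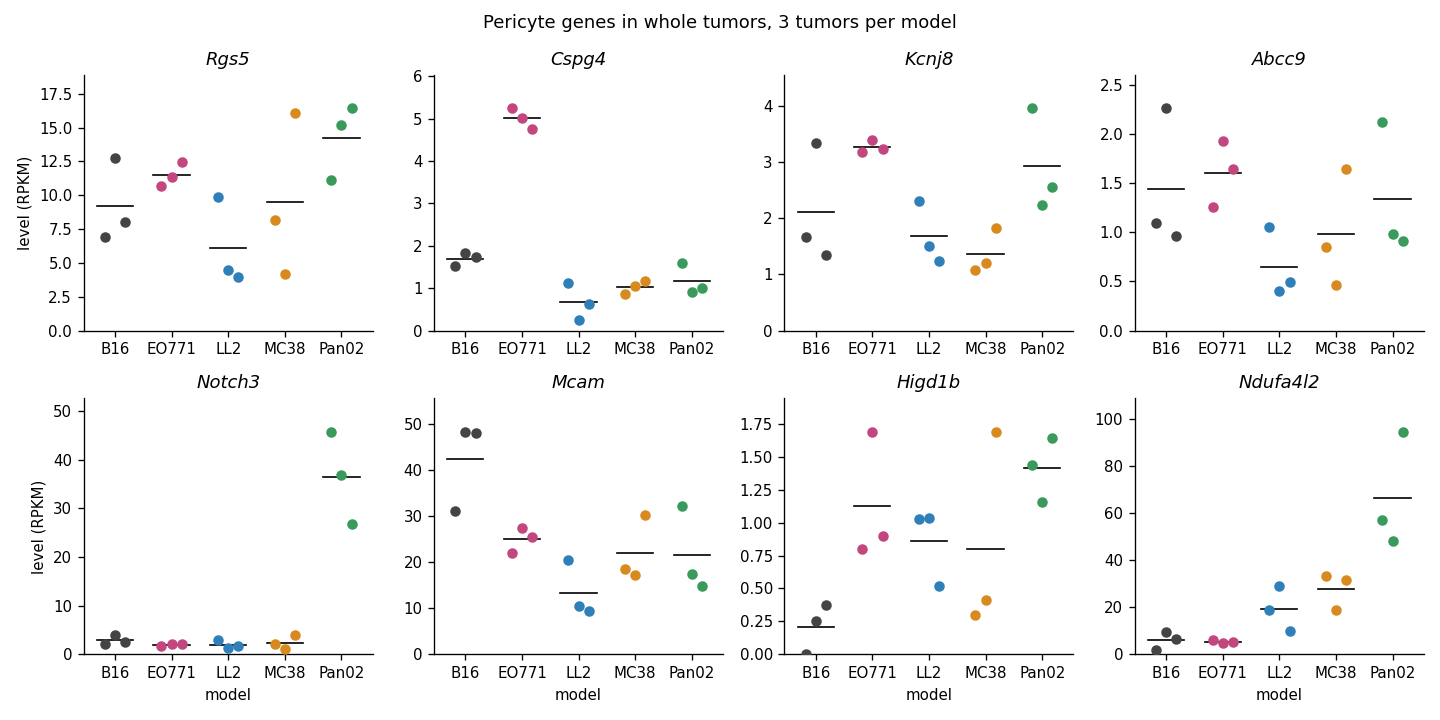
Level of each of the 8 genes in every whole tumor, with RPKM on a linear axis from 0 and the 5 models side by side; each point is 1 tumor and each line the mean of 3 tumors. Notch3 in Pan02 (26.7 to 45.7 RPKM) and Cspg4 in EO771 (4.75 to 5.24 RPKM) lie above every tumor of the other models, while the Rgs5 and Abcc9 points of the models overlap.

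Rgs5, a regulator of G-protein signalling that is among the most used pericyte markers, lies at mm10 chr1:169655501-169695813 on the plus strand. In whole tumors its level was 6.89, 12.7 and 8.02 RPKM in B16, 10.7, 11.3 and 12.4 RPKM in EO771, and 9.90, 4.50 and 3.94 RPKM in LL2. It was 8.19, 4.18 and 16.1 RPKM in MC38 and 11.1, 15.2 and 16.4 RPKM in Pan02. The models overlapped, and MC38 alone spanned nearly the whole range. The order of the means was Pan02, EO771, MC38, B16 and LL2, and no neighbours in this order differed. Of the 10 pairs of models only Pan02 and LL2 differed, with LL2 lower by a log2 fold change of -1.22 ± 0.43 (SE, adjusted p = 0.0314).

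In sorted CAFs Rgs5 was 22.8 and 29.8 RPKM in EO771, 34.8 and 29.9 RPKM in LL2, 96.6 and 24.6 RPKM in MC38, and 4.89 and 4.33 RPKM in Pan02. Both Pan02 libraries lay below every other CAF library, and MC38 library 6 lay within the range of EO771 and LL2 while library 5 lay far above it. Against the mean of the other models Rgs5 was lower in Pan02 CAFs by a log2 difference of -2.67 ± 0.43 (adjusted p = 0.00176) and higher in MC38 CAFs by 1.54 ± 0.43 (adjusted p = 0.0166). Among neighbours in the order of CAF means, EO771 and Pan02 differed (adjusted p = 0.00884), and MC38, LL2 and EO771 did not.

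Cspg4 encodes the NG2 proteoglycan, a surface molecule of pericytes and of several tumor cells, and lies at mm10 chr9:56865104-56899870 on the plus strand. In EO771 tumors it was 5.24, 5.01 and 4.75 RPKM, above every tumor of the other 4 models. It was 1.52, 1.83 and 1.74 RPKM in B16 and 1.12, 0.24 and 0.623 RPKM in LL2. In MC38 it was 0.865, 1.06 and 1.17 RPKM and in Pan02 1.60, 0.915 and 1.02 RPKM. EO771 was higher than the mean of the other models by a log2 fold change of 2.21 ± 0.26 (adjusted p = 9.76e-06), and it differed from B16, its neighbour in the order (adjusted p = 0.00276). LL2 was lower by -1.45 ± 0.33 (adjusted p = 0.00318).

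The sorted EO771 cells did not stand out in the same way. Cspg4 was 5.32 and 5.42 RPKM in CAFs of EO771, 2.69 and 2.45 RPKM in LL2, 10.3 and 2.38 RPKM in MC38, and 0.711 and 0.386 RPKM in Pan02. MC38 library 5 was the highest of the 8 and MC38 library 6 was below both LL2 libraries. Cspg4 was lower in Pan02 CAFs by -1.76 ± 0.39 (adjusted p = 0.00734), and the EO771 contrast of 0.98 ± 0.39 was not called (adjusted p = 0.0685). Without MC38 library 5 the EO771 contrast was 1.27 ± 0.12 and was called (adjusted p = 0.000167).

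Kcnj8 and Abcc9 encode the 2 kinds of subunit of one channel, the vascular ATP-sensitive potassium channel: Kir6.1 is the pore and SUR2 the sulphonylurea receptor around it. The genes are neighbours on the minus strand, with Kcnj8 at mm10 chr6:142564837-142571614 and Abcc9 at mm10 chr6:142587862-142702274, 16247 bases apart. Their promoters are printed because the 2 genes neighbour each other and moved together in CAFs, and that of Notch3 because it moved differently there. Each sequence is RefSeq's on GRCm38.p6 (mm10), on the gene's own strand, from 250 bases before to 50 after its start. The Kcnj8 and Abcc9 starts are those of the expression tables, and the Notch3 start lies 38 bases upstream of the one there. Kcnj8 is at chr6:142571565-142571864, Abcc9 at chr6:142702225-142702524 and Notch3 at chr17:32166841-32167140, all on the minus strand. Capitals mark matches, on either strand, to ACGTG, the core of the hypoxia response element.
Kcnj8: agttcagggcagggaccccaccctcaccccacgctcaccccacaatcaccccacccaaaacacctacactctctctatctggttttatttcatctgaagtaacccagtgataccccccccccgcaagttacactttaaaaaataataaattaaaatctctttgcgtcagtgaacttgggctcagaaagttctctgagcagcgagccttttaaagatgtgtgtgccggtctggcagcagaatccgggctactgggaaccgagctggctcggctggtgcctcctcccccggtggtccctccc
Abcc9: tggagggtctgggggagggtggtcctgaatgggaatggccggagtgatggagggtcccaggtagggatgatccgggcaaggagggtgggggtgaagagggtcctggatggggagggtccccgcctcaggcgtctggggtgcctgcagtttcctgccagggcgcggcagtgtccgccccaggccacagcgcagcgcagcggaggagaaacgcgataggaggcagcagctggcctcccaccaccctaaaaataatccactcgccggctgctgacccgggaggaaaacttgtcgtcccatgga
Notch3: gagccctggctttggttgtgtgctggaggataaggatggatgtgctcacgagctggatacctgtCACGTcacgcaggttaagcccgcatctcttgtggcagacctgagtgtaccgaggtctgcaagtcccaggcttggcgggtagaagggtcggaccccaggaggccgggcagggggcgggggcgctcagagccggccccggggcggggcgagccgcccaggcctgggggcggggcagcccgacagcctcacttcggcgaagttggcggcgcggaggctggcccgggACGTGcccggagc

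Of the 6 members with an entry in the promoter table, Notch3 had 2 matches to ACGTG in this window and Rgs5, Kcnj8, Abcc9, Mcam and Cspg4 had 0. Of 32851 promoters of the same length, 19.6% held at least 1 match on either strand. GTGGGAA, a motif of the Notch effector RBPJ, was in 0 of the 6 windows and in 6.38% of all promoters, both strands searched. Higd1b and Ndufa4l2 had no entry.

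In whole tumors Kcnj8 was 1.66, 3.34 and 1.34 RPKM in B16, 3.18, 3.39 and 3.24 RPKM in EO771, and 2.30, 1.51 and 1.24 RPKM in LL2. It was 1.08, 1.21 and 1.82 RPKM in MC38 and 3.96, 2.24 and 2.56 RPKM in Pan02. The EO771 tumors were the most alike, and no model lay wholly above or below the rest. The test over 5 models passed (adjusted p = 0.0207), but no model reached the fold needed for a call. The nearest was MC38 with -0.83 ± 0.30 (adjusted p = 0.0329), and 3 of the 10 pairs of models differed.

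Abcc9 in whole tumors was 1.09, 2.26 and 0.962 RPKM in B16, 1.25, 1.93 and 1.64 RPKM in EO771, and 1.05, 0.407 and 0.493 RPKM in LL2. It was 0.851, 0.464 and 1.64 RPKM in MC38 and 2.12, 0.986 and 0.909 RPKM in Pan02. All models overlapped, and 0 of the 10 pairs differed in edgeR's test. The antisense gene 5330439B14Rik overlaps the Abcc9 gene and was not told apart by strand, but it drew only 0.5 to 11 counts per tumor.

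The sorted cells separated the channel genes more clearly. Kcnj8 was 3.88 and 4.03 RPKM in CAFs of EO771, 8.05 and 8.33 RPKM in LL2, 22.3 and 4.06 RPKM in MC38, and 0.443 and 0.524 RPKM in Pan02. Abcc9 was 2.41 and 2.46 RPKM in EO771, 4.89 and 4.09 RPKM in LL2, 7.83 and 1.64 RPKM in MC38, and 0.658 and 0.365 RPKM in Pan02. For both genes the 2 Pan02 libraries were the lowest of the 8, and MC38 library 5 was the highest. In Pan02 CAFs Kcnj8 was lower by -2.41 ± 0.48 (adjusted p = 0.00450) and Abcc9 by -1.58 ± 0.39 (adjusted p = 0.0115). In MC38 CAFs Kcnj8 was called higher by 1.42 ± 0.48 (adjusted p = 0.0350), and Abcc9, at 0.66 ± 0.39, was not (adjusted p = 0.177). The related channel genes Kcnj11 and Abcc8 reached at most 0.083 and 0.19 RPKM in any CAF library. In whole tumors Abcc8 reached at most 0.0802 RPKM. Kcnj11 reached 1.59 RPKM in MC38 tumors, 0.670 RPKM in LL2 and 0.612 RPKM in Pan02, but at most 0.0170 RPKM in B16 and EO771. Skeletal muscle markers summed to as much as 2327, 811 and 647 RPKM in MC38, LL2 and Pan02 tumors, and to at most 12.3 RPKM in B16 and EO771. The part of muscle RNA in the tumor levels of the channel genes was not tested.

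Notch3, the Notch receptor of mural cells, lies at mm10 chr17:32120893-32166852 on the minus strand and showed the largest fold change of any member in whole tumors. In Pan02 tumors it was 45.7, 36.9 and 26.7 RPKM. In the other models it was 2.16, 3.998 and 2.45 RPKM in B16, 1.69, 2.13 and 2.17 RPKM in EO771, 2.99, 1.26 and 1.65 RPKM in LL2, and 2.14, 1.03 and 3.88 RPKM in MC38. Every Pan02 tumor lay far above the highest of the other 12 tumors. The log2 fold change against the mean of the other models was 4.01 ± 0.28 (adjusted p = 6.30e-08), and Pan02 differed from B16, the next model (adjusted p = 1.01e-05). The remaining models did not differ from their neighbours. Notch3 was also called lower in EO771 (-1.23 ± 0.36, adjusted p = 0.0107) and LL2 (-1.26 ± 0.36, adjusted p = 0.0122), in contrasts whose reference holds the Pan02 tumors. The first was lost without EO771 tumor 1 (-1.12, adjusted p = 0.0579) and the second without LL2 tumor 2 (-1.02, adjusted p = 0.0759) or tumor 3 (-1.15, adjusted p = 0.0563).

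In CAFs Notch3 was 4.75 and 5.54 RPKM in EO771, 10.5 and 8.03 RPKM in LL2, 24.2 and 5.38 RPKM in MC38, and 31.5 and 20.5 RPKM in Pan02. Pan02 was again the highest on average, but MC38 library 5 fell between the 2 Pan02 libraries. Notch3 was the only member called higher in Pan02 CAFs, by 1.51 ± 0.46 (adjusted p = 0.0255), and it was lower in EO771 CAFs by -1.30 ± 0.46 (adjusted p = 0.0456). The EO771 call was lost without any 1 library except MC38 library 6, and the Pan02 call without library 3 (1.21, adjusted p = 0.168), library 4 (1.81, adjusted p = 0.0615), library 1 (adjusted p = 0.0509) or library 8 (adjusted p = 0.0625). The 2 Pan02 libraries in which it was high were also those with the most epithelial RNA. Krt18 was at 416 RPKM in Pan02 CAFs against 33.5 RPKM in the other models, Krt19 at 81.9 against 6.39 RPKM and Cdh1 at 12.3 against 0.302 RPKM. Other epithelial genes were not highest in Pan02 CAFs. Krt8 averaged 493 RPKM in EO771 against 465 RPKM in Pan02, and Epcam 2.22 RPKM in LL2 against 1.42 RPKM in Pan02. The EO771 CAFs, lowest in mean Notch3, had sums of the epithelial markers of 498 and 506 RPKM. In MC38 library 5, with Notch3 at 24.2 RPKM, this sum was 4.51 RPKM. The part of cancer-cell RNA in the Notch3 level of the Pan02 CAF libraries was not tested.

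Mcam, the adhesion molecule CD146 of endothelium and pericytes and a marker of melanoma, lies at mm10 chr9:44134658-44142726 on the plus strand. Its levels were 31.1, 48.3 and 48.0 RPKM in B16 tumors, 22.1, 27.4 and 25.4 RPKM in EO771, and 20.5, 10.4 and 9.33 RPKM in LL2. In MC38 they were 18.6, 17.2 and 30.2 RPKM and in Pan02 32.2, 17.5 and 14.9 RPKM. B16 was higher than the mean of the other models by 1.09 ± 0.25 (adjusted p = 0.00180), and just short of the fold for a call without tumor 2 (0.990) or tumor 3 (0.997). The 3 B16 tumors did not overlap with those of EO771, the next model, but the test of that pair was not passed (adjusted p = 0.0675). The sum of 8 melanocyte markers was 11240 to 13639 RPKM in the B16 tumors, and the part of melanoma cells in the Mcam level was not tested. LL2 was lower by -0.99 ± 0.29 (adjusted p = 0.0140), just short of the fold for a call.

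Mcam in CAFs was 18.7 and 19.8 RPKM in EO771, 22.0 and 26.4 RPKM in LL2, 64.3 and 13.8 RPKM in MC38, and 9.06 and 8.64 RPKM in Pan02. Both Pan02 libraries were below all others, with a log2 difference of -1.35 ± 0.46 (adjusted p = 0.0417). This was the smallest of the decreases called in Pan02 CAFs, and its adjusted p rose above 0.05 without any 1 library of EO771, Pan02 or LL2 (0.0705 to 0.161).

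Higd1b, a small mitochondrial protein of the hypoxia-induced domain family, lies at mm10 chr11:102836296-102838039 on the plus strand. In tumors it was 0, 0.256 and 0.376 RPKM in B16, 0.799, 1.69 and 0.897 RPKM in EO771, and 1.03, 1.04 and 0.515 RPKM in LL2. It was 0.297, 0.409 and 1.69 RPKM in MC38 and 1.44, 1.16 and 1.65 RPKM in Pan02. These values rest on 0, 3 and 5.5 reads in the B16 tumors and on at most 21.5 reads in any tumor, and a count of 0 in B16 tumor 1 allows up to 0.404 RPKM by counting error alone. B16 was called lower by -1.98 ± 0.64 (adjusted p = 0.0152), a call lost without B16 tumor 1 (-1.58, adjusted p = 0.0538) or tumor 2 (-1.99, adjusted p = 0.0514).

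In sorted CAFs Higd1b was 2.58 and 2.96 RPKM in EO771, 5.72 and 5.03 RPKM in LL2, 23.3 and 2.62 RPKM in MC38, and 0.301 and 0.218 RPKM in Pan02. Its MC38 libraries were the furthest apart of any member, 8.87-fold, and its Pan02 values rest on 2.5 and 2 reads. The contrasts were -2.27 ± 0.59 in Pan02 (adjusted p = 0.0144) and 1.59 ± 0.59 in MC38 (adjusted p = 0.0494). The MC38 call was lost under 4 of the 7 other settings, those being no filter on low values, median-of-ratios scaling, no variance trend and the longest transcript (limma, adjusted p 0.0504 to 0.107). The Pan02 call was lost without library 3 (adjusted p = 0.0729) or library 4 (adjusted p = 0.0808).

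Ndufa4l2, a hypoxia-induced relative of the respiratory-chain protein NDUFA4, lies at mm10 chr10:127514939-127517156 on the plus strand. Its Pan02 tumors were the highest, with 56.9, 48.0 and 94.5 RPKM. They were followed by MC38 with 33.3, 18.9 and 31.6 RPKM and LL2 with 18.9, 29.1 and 9.74 RPKM. B16 had 1.69, 9.64 and 6.69 RPKM and EO771 6.25, 4.83 and 5.18 RPKM. This was the member with the most pairs of models apart, 8 of 10, and the only neighbours in the order that did not differ were MC38 with LL2 and B16 with EO771. The contrasts were 2.52 ± 0.32 in Pan02 (adjusted p = 1.81e-05), -1.76 ± 0.43 in B16 (adjusted p = 0.00272) and -1.99 ± 0.44 in EO771 (adjusted p = 0.00185).

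In CAFs the place of Pan02 was at the other end. Ndufa4l2 was 23.4 and 35.2 RPKM in EO771, 45.8 and 46.0 RPKM in LL2, 150 and 53.8 RPKM in MC38, and 8.55 and 4.93 RPKM in Pan02. Both MC38 libraries were above, and both Pan02 libraries below, every library of the other models. The log2 difference was -2.74 ± 0.37 in Pan02 (adjusted p = 0.000811) and 2.06 ± 0.37 in MC38 (adjusted p = 0.00245). The last 34 bases of Ndufa4l2 overlap the opposite-strand gene Shmt2, whose reads cannot be told apart there by strand. Shmt2 was lower in Pan02 tumors (-1.10, adjusted p = 8.84e-05) and Pan02 CAFs (-1.11, adjusted p = 0.000875), and its MC38 CAF contrast was 0.96 (adjusted p = 0.00136).

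Counted by model, the tumors gave few calls. In B16, 1 of 8 genes was higher (Mcam) and 2 were lower (Higd1b and Ndufa4l2), against 13.1% and 19.6% of all genes. In EO771, 1 was higher (Cspg4) and 2 were lower (Notch3 and Ndufa4l2), against 9.71% and 13.7%. In LL2, 0 were higher and 2 were lower (Cspg4 and Notch3), against 8.51% and 8.29%. In MC38 edgeR called 0 in either direction, against 11.2% and 8.24% of all genes, although 3 contrasts had an unadjusted p under 0.05 (Kcnj8, Notch3 and Ndufa4l2) and all 3 also passed after adjustment without the fold. In Pan02, 2 were higher (Notch3 and Ndufa4l2) and 0 were lower, against 18.8% and 7.93%. The median log2 fold change of the 8 genes was lowest in LL2 at -0.91, followed by MC38 at -0.19, B16 at -0.06, EO771 at 0.45 and Pan02 at 0.62, while the median of all genes was between -0.04 and 0.05. No member was called in the same direction in more than 2 models.

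**Figure D2:**
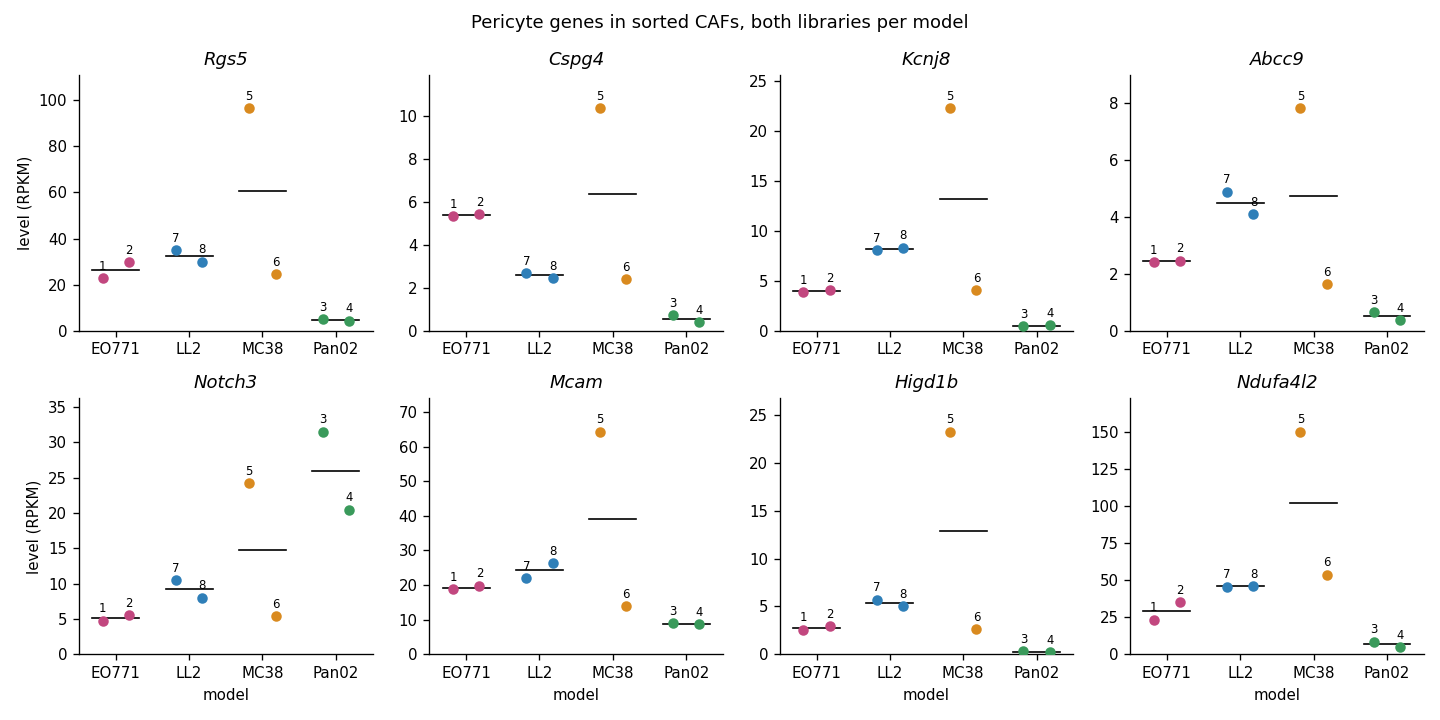
Level of each of the 8 genes in both CAF libraries of each model, with RPKM on a linear axis from 0; each point is 1 library with its number in the table, and each line is the mean of 2. The Pan02 points are the lowest for all genes but Notch3, and MC38 library 5 is far above MC38 library 6 for every gene.

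The sorted Pan02 cells carried most of the pattern in CAFs. In Pan02, 7 of 8 genes were lower (all but Notch3), against 8.41% of all genes, and 1 was higher, against 9.73%. The 7 genes were also below every other CAF library in both Pan02 libraries, which 15.4% of all genes were. The median log2 difference of the 8 was -2.01, against 0.00 for all genes. With 1 Pan02 library left out the differences kept their direction but fewer passed: 4 of the 8 were called without library 3 and 3 (Rgs5, Kcnj8 and Ndufa4l2) without library 4. In MC38, 4 genes were higher (Rgs5, Kcnj8, Higd1b and Ndufa4l2) and 0 lower, against 10.9% and 9.87%. In EO771, 0 were higher and 1 was lower (Notch3), against 8.05% and 7.06%. In LL2 limma called 0 in either direction, against 3.89% and 5.13%, with 0 of the 8 at an unadjusted p under 0.05. The median differences were 1.17 in MC38, 0.77 in LL2 and -0.04 in EO771, and those of all genes lay between -0.03 and -0.02.

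The 2 MC38 libraries differed in all 8 genes in the same direction. Library 5 exceeded library 6 by 2.79-fold for Ndufa4l2, the smallest ratio, and by 8.87-fold for Higd1b, with a median of 4.58-fold. The members' median difference on the log2(RPKM + 1) scale was 1.96 (1.46 to 2.74), and 8 of 8 differed by at least 1, which 5.32% of all genes did. The pairs of the other models lay between ratios of 0.664 and 1.84. Library 6 was also the shallowest CAF library, with about 9267810 reads, of which 6223430 were on genes. Library 5 had about 13213300 reads, of which 10705100 were on genes. The sorting round that was high in the 8 genes was also high in fibroblast markers, of which 9 of 10 were higher by at least 1 (median 2.30). The same held for 7 of 10 smooth muscle genes (median 1.43), 10 of 18 other pericyte genes (median 1.14) and 7 of 10 other vascular CAF genes (median 1.49). It held for 0 of 10 endothelial, 0 of 10 hypoxia, 0 of 5 leukocyte and 0 of 7 epithelial markers. The cause of the gap between these rounds was not tested.

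**Figure D3:**
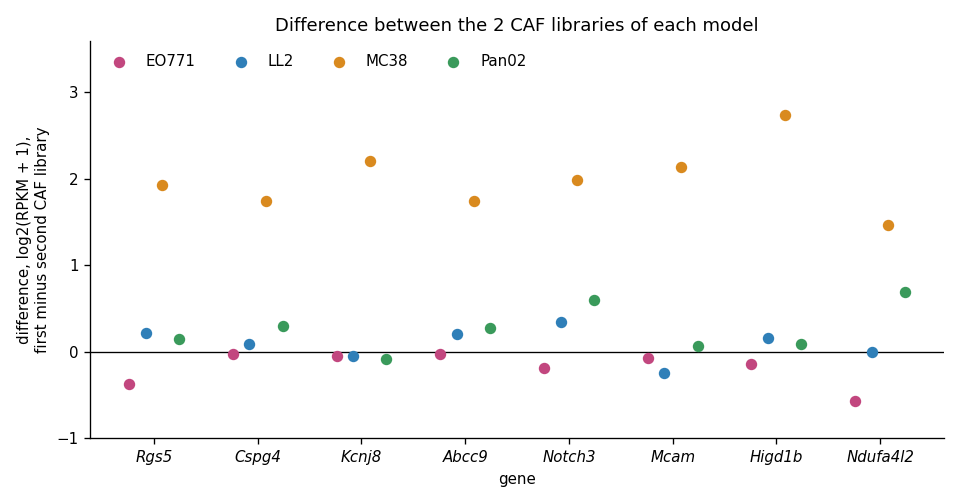
Difference between the 2 CAF libraries of each model for the 8 genes on the log2(RPKM + 1) scale, the first-numbered library minus the second; each point is 1 gene in 1 model. The MC38 points lie at 1.46 to 2.74, above those of EO771, LL2 and Pan02 for every gene.

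Results in MC38 therefore rest on which library is used. Without library 5, only Ndufa4l2 was called higher in MC38 CAFs (1.32 ± 0.28, adjusted p = 0.00536), against 9.6% of all genes. The values of Rgs5, Kcnj8 and Higd1b were then 0.57 (adjusted p = 0.0206), 0.31 (adjusted p = 0.0627) and 0.22 (adjusted p = 0.214). Without library 6, all 8 were called higher in MC38, by 1.09 to 2.96, against 11.7%. The LL2 contrasts moved too, because MC38 is part of their reference. Without library 5, 5 of 8 genes were called higher in LL2 CAFs, against 4.74%: Rgs5 by 1.08, Kcnj8 by 1.46, Abcc9 by 1.20, Higd1b by 1.30 and Ndufa4l2 by 1.02. The Pan02 contrasts moved less. Without library 5, 6 genes stayed lower in Pan02, against 8% of all genes, by -2.496 (Ndufa4l2) to -1.29 (Abcc9), and Notch3 stayed higher at 1.84. Mcam, at -0.99, kept its adjusted p (0.000181) but missed the fold.

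**Figure D4:**
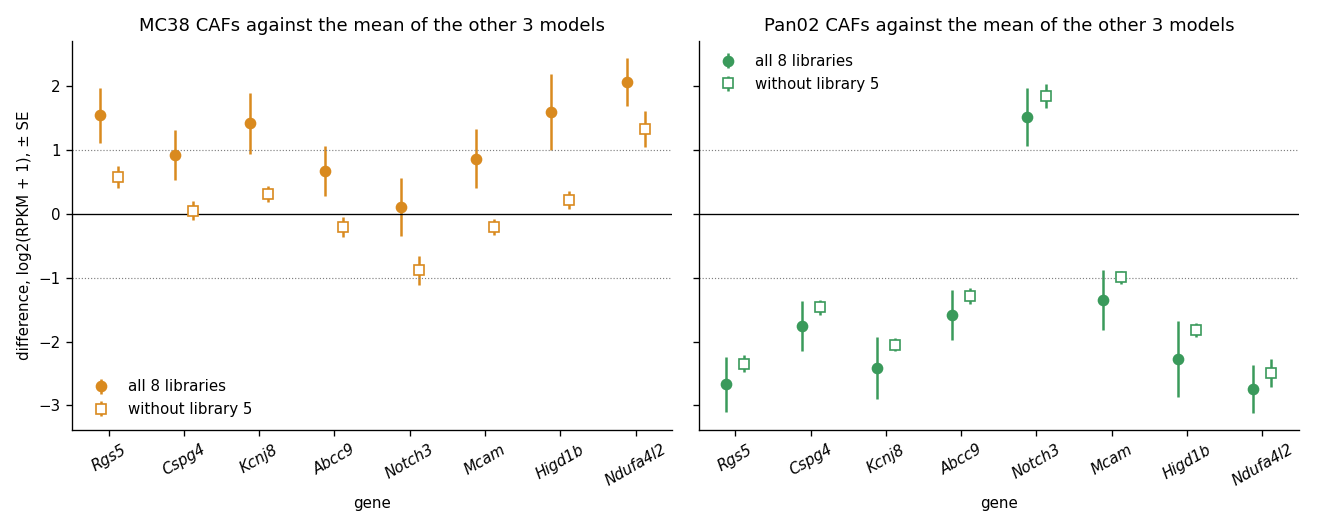
Difference of each gene on the log2(RPKM + 1) scale in CAFs of MC38 and of Pan02 from the mean of the other 3 models, with bars of 1 SE; filled circles use all 8 libraries, open squares leave out MC38 library 5, and dotted lines mark differences of 1 either way. In Pan02 the filled circles lie between -2.74 and -1.35 for 7 genes and at 1.51 for Notch3, and in MC38 the squares lie below the circles for every gene.

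Beside the tumors of the same model, the sorted Pan02 cells held less of all 8 genes. The 2 tables were normalized separately, so these ratios of mean RPKM, taken for the same transcript in both, carry no test. In Pan02 the CAF level was 0.101 of the tumor level for Ndufa4l2, 0.165 for Kcnj8, 0.171 for Higd1b, 0.324 for Rgs5, 0.373 for Abcc9, 0.411 for Mcam, 0.465 for Cspg4 and 0.713 for Notch3. In LL2 the ratios ran from 1.81 for Mcam to 6.71 for Abcc9, and in EO771 from 0.772 for Mcam to 5.40 for Ndufa4l2. In MC38 they ran from 1.78 for Mcam to 14.7 for Higd1b, and with the lower library alone Mcam fell to 0.629. Fap, the sorting marker, showed the same split, with 2.58 RPKM in CAFs against 4.09 RPKM in tumors of Pan02, and 9.58 against 1.05 RPKM in LL2.

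**Figure D5:**
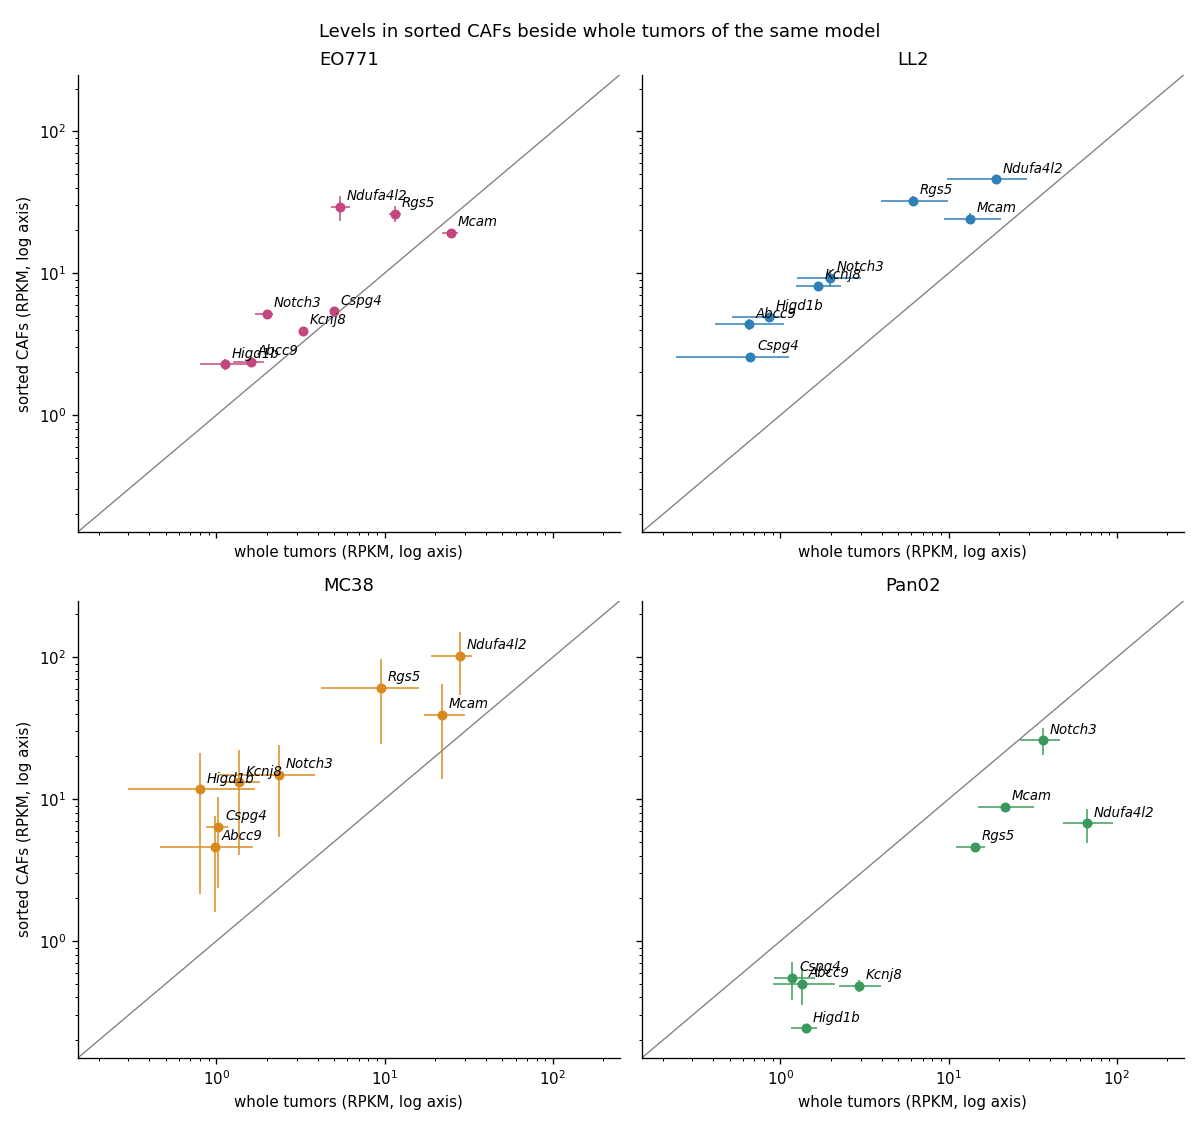
Mean RPKM of each gene in sorted CAFs against that in whole tumors of the same model, both on log axes, with bars from the lowest to the highest library and a line of equal levels. In Pan02 all 8 genes lie below the line, at ratios of 0.101 to 0.713, and in LL2 all 8 lie above it, at 1.81 to 6.71.

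Other mural genes were compared by lists that hold none of the 8. Of 18 other pericyte genes, 7 were lower and 2 higher in Pan02 CAFs, against 8.41% and 9.73% of all genes, with a median of -0.99. Cox4i2, a lung and pericyte isoform of a cytochrome oxidase subunit, fell by 2.24 (adjusted p = 0.00396), the peptidase gene Anpep (CD13) by 2.16 (adjusted p = 0.000727) and the intermediate filament gene Des by 2.08 (adjusted p = 0.00723). The transcription factor gene Tbx2 rose by 3.15 (adjusted p = 0.000428). Pdgfrb, which defines mural cells and is also made by fibroblasts, stayed at 50.7 and 68.7 RPKM in the Pan02 libraries, within the 24.8 to 82.3 RPKM of the other models. In MC38 CAFs 6 of the 18 were higher and 1 lower, against 10.9% and 9.87% of all genes. The rises were led by Ggt1 (2.23), Vtn (2.06), Cox4i2 (1.46) and Des (1.43). Ggt1 was at 4.83 and 6.02 RPKM in libraries 5 and 6 and at most 0.688 RPKM elsewhere. Vtn was at 27.1 and 4.85 RPKM, both above the 2.95 RPKM reached in the other models. For Cox4i2 (15.2 and 3.22 RPKM) and Des (28.5 and 6.15 RPKM) library 6 lay within the range of the other models, so only library 5 was high. In EO771 CAFs 1 of the 18 was higher and 4 were lower, against 8.05% and 7.06% of all genes. In LL2 CAFs 2 were higher and 0 lower, against 3.89% and 5.13%.

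In whole Pan02 tumors the other pericyte genes had a higher median of 0.80. Of the 18, 4 were higher and 1 lower, near the 18.8% and 7.93% of all genes. These 2 shares of all genes, 18.8% higher and 7.93% lower, are also the ones to set beside the counts of the other lists in these tumors. Pdgfrb was higher by 2.30 (adjusted p = 3.12e-07) and Ggt1 lower by -3.41 (adjusted p = 1.93e-06). Of the smooth muscle contractile genes tested there, 9 of 11 were higher (median 1.80), among them Tagln (3.59), Cnn1 (3.53), Acta2 (2.96) and Myl9 (2.74). Their summed level was 866, 324 and 322 RPKM in Pan02 tumors 1, 2 and 3, against 252 RPKM or less in the other models. Skeletal muscle markers were higher there as well for 4 of 10 (median 2.15), with sums of 647, 157 and 38.0 RPKM, and their part in the smooth muscle result was not tested. Fibroblast markers moved with them, 9 of 10 being higher in Pan02 tumors (median 2.44), and their summed level was 6513 to 7304 RPKM there against 1909 RPKM or less in any other tumor. Endothelial markers did not move in 1 direction, with 1 of 10 higher and 1 lower (median 0.02). In Pan02 CAFs 0 of 10 smooth muscle genes were higher and 2 were lower, against 9.73% and 8.41% of all genes. The 2 were Actg2 (-1.63) and Myh11 (-1.50).

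Endothelial RNA was low together with the mural genes in the sorted Pan02 cells, but not high with them in MC38. Endothelial markers summed to 112 RPKM in both EO771 libraries, 90.4 and 107 RPKM in LL2, 71.3 and 45.6 RPKM in MC38, and 20.5 and 10.8 RPKM in Pan02. In Pan02 CAFs 7 of 10 endothelial markers were lower (median -1.33), against 8.41% of all genes. Among them were Egfl7 (-2.74), Eng (-2.29) and Cdh5 (-2.02). In MC38 CAFs the median difference of the endothelial markers was -0.39, beside 1.17 for the 8 genes. In Pan02 CAFs fibroblast markers were lower for 2 of 10, Thy1 by -2.54 and Fap by -1.31, against 8.41% of all genes. Epithelial markers were higher in Pan02 CAFs for 5 of 7 (median 3.36), against 9.73%. The part of a different mix of cells in the levels of the 8 genes was not tested.

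Some genes of the Notch pathway other than Notch3 were also higher in Pan02. In Pan02 tumors 4 of 14 were higher and 0 lower, against 18.8% and 7.93% of all genes, with the ligand genes Jag2 at 3.26 (adjusted p = 7.10e-08) and Jag1 at 1.84 (adjusted p = 1.96e-05) and the target gene Hes1 at 2.499 (adjusted p = 4.08e-08). In Pan02 CAFs 4 of 13 were higher and 1 lower, against 9.73% and 8.41%, with Hes1 at 2.52 (adjusted p = 0.00189), Jag2 at 1.75 (adjusted p = 0.000145), Hey1 at 1.55 (adjusted p = 0.000133) and Jag1 at 1.44 (adjusted p = 0.000391). Hes1 was at 389 RPKM in Pan02 library 3 and 107 RPKM in library 4, and Jag2 at 7.77 and 6.40 RPKM. Both libraries lay above every other CAF library for these 4 genes, and the pathway's sum was 496 and 191 RPKM in them against 149 RPKM or less elsewhere. Not all genes of the pathway rose. Heyl was at 0.513 to 0.737 RPKM in Pan02 CAFs, below the 1.54 RPKM or more of the other models, as were most of the 8 genes. Medians of the pathway were 0.58 in tumors and 0.26 in CAFs. In MC38 CAFs, where Notch3 gave 0.10, Notch2 and Rbpj were lower by -1.14 and -1.09. The receptor genes Notch1 and Notch2 averaged 8.15 and 24.3 RPKM in Pan02 CAFs beside 25.97 RPKM for Notch3.

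Genes that recruit pericytes did not follow the 8 genes in Pan02 CAFs. The shares of all genes to set beside the counts here were 9.73% higher and 8.41% lower in Pan02 CAFs. They were 10.9% and 9.87% in MC38 CAFs and 18.8% and 7.93% in Pan02 tumors. In Pan02 CAFs the recruitment genes were split. Of 12, 4 were higher and 2 lower, with Angpt1 at 2.33, Pdgfb at 2.23 and Hbegf at 1.68 above and Angpt2 at -1.51 below. In MC38 CAFs 0 were higher and 4 lower, Hbegf by -2.76, Tgfbr2 by -1.99, Pdgfb by -1.77 and Tgfb1 by -1.12. In Pan02 tumors 6 were higher and 1 lower, with Tgfbr2 at 1.93, S1pr3 at 1.68 and Pdgfb at 1.61 beside Pdgfrb. Relatives of the 8 genes in the same protein families were also lower in Pan02 CAFs, 5 of 9, with Rgs16 at -3.20, Rgs4 at -1.26, Ndufa4 at -1.24 and Higd1a at -1.13. Of 10 other vascular CAF genes, 4 were lower and 2 higher there, Gng11 by -3.07, Sparcl1 by -2.08 and Esam by -2.03 on one side and Nr2f2 by 1.98 on the other. Hypoxia genes, given here because Ndufa4l2 answers to oxygen, were split in Pan02 CAFs, with 3 of 10 higher and 2 lower (Ndrg1 at 1.90, Car9 at 1.26, Adm at -1.90 and Slc2a1 at -1.61). In Pan02 tumors 3 were higher and 0 lower, Ndrg1 at 2.08, Egln3 at 1.81 and Vegfa at 1.00.

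Within a model, tumors that were high in 1 of the 8 genes tended to be high in the others. Over the 15 tumors, after each model's mean was taken off, the correlation of log2(RPKM + 1) was above 0 for 27 of the 28 pairs of members (median Pearson r 0.57, range -0.07 to 0.92). This is a description, since tumors share depth and composition. The tumor with the largest endothelial sum in its model held the highest value of 7 of 8 members in B16 (tumor 2), 4 in EO771 (tumor 2), 6 in LL2 (tumor 1), 7 in MC38 (tumor 3) and 5 in Pan02 (tumor 1), 29 of 40 in all. Of all genes, 41.0%, 29.1%, 33.4%, 25.6% and 40.8% were highest in those tumors. Against the tumors with the largest sums of leukocyte, skeletal muscle, fibroblast and hypoxia genes the same count was 21, 21, 16 and 10 of 40. In these tumors 25.5% to 41.0% of all genes were highest. The choices overlap, so the counts are not independent. The endothelial tumor was also the leukocyte one in B16, EO771 and MC38, and the skeletal muscle one in B16, MC38 and Pan02. This comparison was set up after the values were seen.

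Across CAF libraries Notch3 stood apart from the other members between models. Pearson r over the 8 libraries was 0.82 (Cspg4 with Abcc9) to 0.99 for the pairs of the other 7 genes, while Notch3 gave -0.35 to -0.05 with them. With each model's mean taken off, Notch3 gave 0.93 to 0.99 with them. With 2 libraries per model, these values largely reflect the MC38 pair, whose differences were the largest. Between the paired libraries of the other models, the members' log2 differences were -0.57 to -0.02 in EO771, -0.25 to 0.34 in LL2 and -0.08 to 0.69 in Pan02. In LL2 and Pan02 they did not all share a direction, so behavior within models in general is not shown. The 8 points share the low Pan02 pair and MC38 library 5. The genes most like Rgs5 over these libraries were Cox4i2, Slc39a7 and Gja4 (r = 0.99, 0.99 and 0.98), out of 12610 compared. Those most like Kcnj8 were Cox4i2, Higd1b and Nid2 (0.99, 0.99 and 0.98), and those most like Abcc9 were Nid2, Sparcl1 and Rcsd1 (all 0.98). Egflam, Heyl and Kcnj8 came first for Higd1b (1.00, 0.99 and 0.99), and Gstt2, Cox4i2 and Dnpep for Ndufa4l2 (all 0.98). Cspg4 was most like 1500009L16Rik, A230050P20Rik and Snx22, Mcam most like Sept4 and Anapc16, and Notch3 most like Cyp26a1, Bcam and St6galnac2, at 0.97 to 0.99.

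Over the 15 tumors 13124 genes were compared. Rgs5 was most like Vash1, Col15a1 and Ptprb (r = 0.91, 0.87 and 0.87), and Abcc9 most like Dll4, Mir1902 and Emcn (0.86, 0.84 and 0.83). Vash1, Ptprb, Dll4 and Emcn are known from endothelium. Kcnj8 was nearest to Car11, Itgb3 and Slc2a8 (0.90, 0.89 and 0.86), and Higd1b to Adcy4, Fam43a and Tigd5 (0.85, 0.85 and 0.83). The patterns set by 1 model had the closest likenesses: Mmp15, Ptpn13 and Rtn4rl1 for Notch3 (0.99, 0.98 and 0.98), Tnip1, Sez6l2 and Dok7 for Cspg4 (0.96, 0.95 and 0.95), and Vkorc1, Wisp2 and Adgrd1 for Ndufa4l2 (0.95, 0.93 and 0.92). Mcam was most like Robo1, Zxdc and Acsf2 (0.89, 0.87 and 0.87).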

How the data were processed

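RNA-seq of 15 whole tumors and 8 sorted CAF libraries was analysed. Per the labels, libraries were polyA-selected and unstranded and mm10 was used; the submitters' processing notes name STAR 2.5.0c, HOMER and DESeq2. The authors deposited expected counts of 40458 transcripts, in steps of 0.5, for the tumors. The authors deposited RPKM for the CAFs, which are normalized to transcript length and library size. The tables also hold 5 columns of samples not analysed here. Of the transcripts, 2 named no gene and were left out.

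Counts were rounded and fitted with edgeR 4.0.16 (R 4.3.3) by the quasi-likelihood test after TMM scaling and filterByExpr, on 15722 genes. CAF values were fitted as log2(RPKM + 1) with limma 3.58.1 and a variance trend, on the 13598 genes that reached 1 RPKM in 2 or more libraries, and a fold on this scale understates the change of low genes. P-values were adjusted by Benjamini-Hochberg over all genes tested. A SE is that of the fit. Tumor RPKM were computed from counts, transcript length and effective library size. CAF depth was recovered from RPKM times length, which fell within 0.1 of a step of 0.5 reads for 100% of the low values checked. Intervals and floors cover counting error only. Libraries of 1 group differed by more than sampling noise in every pair (chi-square per degree of freedom 5.14 to 142).

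The members and lists were chosen with earlier results of these data known. All members are described. From a list, at most 4 genes per contrast were named, those past the call with the largest change and a mean of at least 1 RPKM, and the 3 genes most like each member. For Mcam in CAFs, 1 of these is not reported here. Defining markers of other cell types were named where a member moved with them. The fits were tested on simulated data: of 200 genes changed by a log2 of 2 in Pan02, edgeR recovered 200 of 200 with 2 false calls (15421 genes) and limma 180 with 11 false calls (13511 genes). The simulation gave every library the same spread and left the models otherwise alike, unlike the data. Recovery with gaps between paired libraries such as that of the MC38 CAFs was not tested. Alternatives were DESeq2 1.42.0, other scalings, filters, pseudocounts and transcripts, a replicate block and leaving out each library.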

Additional observations from a re-analysis of the deposited data

Results flagged for a closer look

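Ndufa4l2 stood out because Pan02 lay at opposite ends in the 2 kinds of sample, without overlap with the other models in either. Pan02 also had the highest tumor mean and the lowest CAF mean of Rgs5 (14.3 and 4.61 RPKM) and Higd1b (1.41 and 0.26 RPKM). For these 2 genes the Pan02 tumors overlapped with those of other models. In whole tumors the Ndufa4l2 mean in Pan02 was 4.54 times the mean of the other models, with 3 of 3 Pan02 tumors above the other 12. In sorted CAFs its Pan02 mean was 0.114 of the mean of the other models, with both Pan02 libraries below the other 6. The difference between the 2 effects was not tested, because the tables were normalized separately.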

How the results depend on the processing

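No call reversed its direction under any alternative run. In MC38 CAFs, 3 contrasts that were not called changed sign without library 5: Abcc9 (0.66 to -0.21), Mcam (0.86 to -0.21) and Notch3 (0.10 to -0.89, adjusted p = 0.0138). The number of members called changed in the tumors of MC38 (3 without a minimum fold and 1 with total-count scaling, from 0), LL2 (4 with DESeq2 and 3 without a minimum fold, from 2) and EO771 (4 without a minimum fold, from 3). In CAFs, with no filter on low values, 4 members differed among the models, from 7, and 0, 2 and 6 were called in EO771, MC38 and Pan02, from 1, 4 and 8, with Notch3 (adjusted p = 0.0622) and Mcam (adjusted p = 0.0932) lost in Pan02. The pseudocount of 0.1 gave 2 in EO771, and 3 settings that ended the Higd1b call gave 3 in MC38. edgeR on the reads recovered from the RPKM, an alternative chosen after seeing the data that called 12037 of 15519 genes among models, gave 2 in EO771, 1 in LL2 and 7 in MC38. Total-count scaling moved the median of all genes by 0.14 in MC38 and -0.11 in Pan02 tumors.

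Leaving out each library in turn, 4 to 8 members differed among tumor models, and 1 to 3 were called in B16, 2 to 3 in EO771, 1 to 5 in LL2, 0 to 2 in MC38 and 2 to 3 in Pan02. The count of 8 came without MC38 tumor 3, that of 5 without LL2 tumor 1 and that of 1 in B16 without B16 tumor 2. In CAFs 3 to 8 differed, and 0 to 1 were called in EO771, 0 to 5 in LL2, 1 to 8 in MC38 and 3 to 8 in Pan02, where 4 were called without library 3 and 3 without library 4. Kcnj8 and Higd1b in MC38 CAFs, Mcam in Pan02 CAFs and Notch3 in EO771 CAFs each lost the call in 7 of 8 leave-outs. Where 1 library of a model remained, it was assumed to vary like the others.

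Same-numbered tumors of different models deviated together no more than others (30 pairs, r -0.17 to 0.26, median 0.03). The 60 pairs with other numbers gave -0.32 to 0.34 (median 0.01). The main fits used no pairing, and this check cannot exclude that a number stands for a shared batch. With a replicate block, 5 members differed and 3, 3, 3, 0 and 2 were called in B16, EO771, LL2, MC38 and Pan02, and Notch3 in Pan02 was 4.01. No paired analysis was possible for CAFs because their columns carry no replicate number. Depth limits Higd1b, which had 0 to 21.5 reads per tumor.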
